A study of Mus musculus with 7 samples.

Results

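The genes described here are 10 imprinted genes with known roles in the hypothalamus: Dlk1, Ndn, Magel2, Peg3, Peg10, Snrpn, Nnat, Plagl1, Cdkn1c and Grb10. They were picked by symbol, with earlier results of these data known, from the 48321 genes counted in every library. All 10 had enough counts to be tested. The tissue was the ventrolateral subdivision of the hypothalamic ventromedial nucleus (VMHvl), many of whose neurons carry estrogen receptor alpha, dissected by hand from female mice and profiled by RNA-seq. The vehicle group (3 mice) received a subcutaneous injection of vehicle and the EB group (4 mice) received 1 µg of estradiol benzoate (EB), an esterified form of estradiol, each 4 hours before tissue collection. All 7 mice were ovariectomized, which removes the main source of circulating estrogen. All were of mixed background with 129/Sv ancestry, descended from a line with a floxed Esr1 gene, and the labels name no Cre driver and give no age. Each library came from 1 mouse, and replicate numbers only name the mice. EB was compared with vehicle to find early transcript differences after estrogen is given back.

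An imprinted gene is expressed mainly from the copy inherited from 1 parent. DNA methylation laid down in the egg or sperm marks imprinting control regions and sets which copy is active, and the zinc-finger protein ZFP57 keeps that methylation in place by binding a methylated TGCCGC motif. Imprinted genes lie in clusters that mix paternally and maternally expressed members, and many are abundant in the hypothalamus, where they are known for effects on feeding, growth, maternal care and body temperature. Counts per gene do not tell the parental copies apart, so every value below is the sum over both.

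Of these genes, Dlk1, Ndn, Magel2, Peg3, Peg10, Snrpn, Nnat and Plagl1 are known as paternally expressed, Cdkn1c as maternally expressed, and Grb10 as maternal in most tissues and paternal in neurons. Promoter windows from 250 bases before to 50 bases after a gene's start were matched for 8 of the 10 genes in RefSeq on GRCm38.p6, 12 windows in all. Those of Peg3 and of Zim1, its maternally expressed neighbour, are shown because the 2 genes share a cluster and Zim1 was the imprinted gene that changed. Those of Plagl1 and Grb10 are shown as the windows of the 10 genes with the most CpG sites. Each is written 5′ to 3′ on the gene's strand, and capitals mark TGCCGC or its reverse complement GCGGCA. The Peg3 window is chr7:6730370-6730669 (minus strand), the Zim1 window is chr7:6696383-6696682 (minus), the Plagl1 window is chr10:13090582-13090881 (plus) and the Grb10 window is chr11:12037371-12037670 (minus).
Peg3: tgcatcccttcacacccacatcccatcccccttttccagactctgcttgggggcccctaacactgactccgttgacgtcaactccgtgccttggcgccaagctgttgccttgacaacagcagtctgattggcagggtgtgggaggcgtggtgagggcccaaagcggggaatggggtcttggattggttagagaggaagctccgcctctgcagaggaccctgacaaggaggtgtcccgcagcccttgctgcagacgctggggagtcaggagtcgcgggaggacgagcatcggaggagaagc
Zim1: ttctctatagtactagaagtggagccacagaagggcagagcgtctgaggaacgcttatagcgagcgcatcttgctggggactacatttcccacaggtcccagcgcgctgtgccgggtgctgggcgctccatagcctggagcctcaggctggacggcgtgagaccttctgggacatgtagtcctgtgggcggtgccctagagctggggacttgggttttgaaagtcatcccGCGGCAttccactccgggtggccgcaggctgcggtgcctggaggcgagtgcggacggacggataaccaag
Plagl1: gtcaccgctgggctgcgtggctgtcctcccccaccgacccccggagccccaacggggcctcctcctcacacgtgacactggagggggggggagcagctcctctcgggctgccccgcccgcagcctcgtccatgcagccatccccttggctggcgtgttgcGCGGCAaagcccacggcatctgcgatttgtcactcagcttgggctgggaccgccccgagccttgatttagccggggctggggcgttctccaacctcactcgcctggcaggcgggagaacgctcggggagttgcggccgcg
Grb10: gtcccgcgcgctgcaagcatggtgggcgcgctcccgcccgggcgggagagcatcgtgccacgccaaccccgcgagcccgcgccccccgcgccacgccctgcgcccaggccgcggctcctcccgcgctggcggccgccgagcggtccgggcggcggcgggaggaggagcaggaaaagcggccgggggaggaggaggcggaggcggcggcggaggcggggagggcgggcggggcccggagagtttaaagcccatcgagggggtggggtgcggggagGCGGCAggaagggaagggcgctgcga

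The GC content was 61.3% with 13 CpG sites in the Peg3 window, 61.7% with 20 in the Zim1 window, 70.7% with 26 in the Plagl1 window and 80.0% with 45 in this Grb10 window. The medians over all 32851 promoter windows were 52.7% and 7. TGCCGC, searched on both strands, lay in 4 of the 12 windows of the 10 genes (1 window each for Grb10, Nnat, Plagl1 and Snrpn) and in 11.6% of all promoter windows. The full palindromic estrogen response element GGTCANNNTGACC lay in 0 of the 12 and in 0.07% of all windows. A single arm of it, GGTCA, which the full element contains, lay in 3 of the 12 (1 of Grb10 and 2 of Snrpn) and in 40.5% of all windows. These are matches of letters in short windows and were not tested as binding sites.

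Library totals ran from 21037303 to 33302293 counts. The 10 genes together took 0.570% to 0.779% of all counts in a library. Vehicle 1 stood apart from the other vehicle libraries: the chi-square per degree of freedom over genes was 166 against vehicle 2 and 156 against vehicle 3, and 19.8 between those 2. Among the EB mice, EB 4 was the farthest from EB 1 (102), and the other EB pairs ran from 17.0 (EB 2 and EB 3) to 52.5. Vehicle 1 had the highest summed level of 8 mural and fibroblast markers, 211 CPM (counts scaled to library size, TMM-normalised), EB 4 the next highest, 134 CPM, and the other 5 libraries 37.9 to 88.3 CPM. Of the markers of the VMH, Fezf1 was at 140 ± 9.53 CPM with vehicle (SD, n = 3) and 128 ± 18.2 with EB (SD, n = 4), and Slc17a6 at 500 ± 61.3 and 633 ± 55.6. Adcyap1 was at 170 ± 15.6 and 144 ± 18.2 CPM and Nkx2-1 at 80.8 ± 21.1 and 54.7 ± 13.7. Nr5a1, which defines the nucleus, was low, at 2.03 ± 1.02 and 2.52 ± 1.11 CPM, as was Sox14, at 1.77 ± 0.84 and 2.74 ± 1.05. Of these 6 markers, 0 passed the test for a change, where 0.919% of all tested genes did. In bulk tissue, fewer cells of a type and less RNA per cell cannot be told apart.

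The 10 genes stayed below the threshold for a change with EB. In a quasi-likelihood test (edgeR) with Benjamini-Hochberg adjustment over all 18387 tested genes, 0 of the 10 had an adjusted p under 0.05, against 0.919% of all tested genes (131 higher and 38 lower). DESeq2 called 0 of the 10 (1.96% of the genes it tested) and limma-voom 0 of the 10 (0.816%), and 0 of the 10 had an unadjusted p under 0.05, against 8.54% of all tested genes. The vehicle and EB mice overlapped in all 10 genes, where 9.10% of all tested genes had no overlap between the groups. The estimate was positive for 2 genes (Dlk1 and Plagl1) and negative for 8. Their median log2 change was -0.07 (-0.01 over all tested genes), and their median absolute log2 change was 0.09 (0.15 over all tested genes).

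The size of change that these mice leave room for stayed within 1.5-fold for most of the 10. That bound (log2 0.585) is wider than the change of Zim1 (log2 -0.51), and the interval of Magel2 reached -0.52. For 8 genes the whole 95% interval lay within a 1.5-fold change in either direction, which held for 48.8% of all tested genes, and the exceptions were Dlk1 and Cdkn1c. The median biological coefficient of variation was 9.13% over the 10 genes and 18.6% over all tested genes, most of which have fewer counts. The trend over genes at the level of each gene was 8.82% to 9.31% for 8 of the 10, 12.4% for Magel2 and 27.3% for Cdkn1c. The spread lay below this trend for 6 of the 10 and above it for 4. Among those 4 were Dlk1 (15.3% against 8.84%) and Cdkn1c (33.3% against 27.3%). A p that misses the threshold does not show that a gene was unaffected, and the intervals below give the range of change that fits each gene's values.

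**Figure D1:**
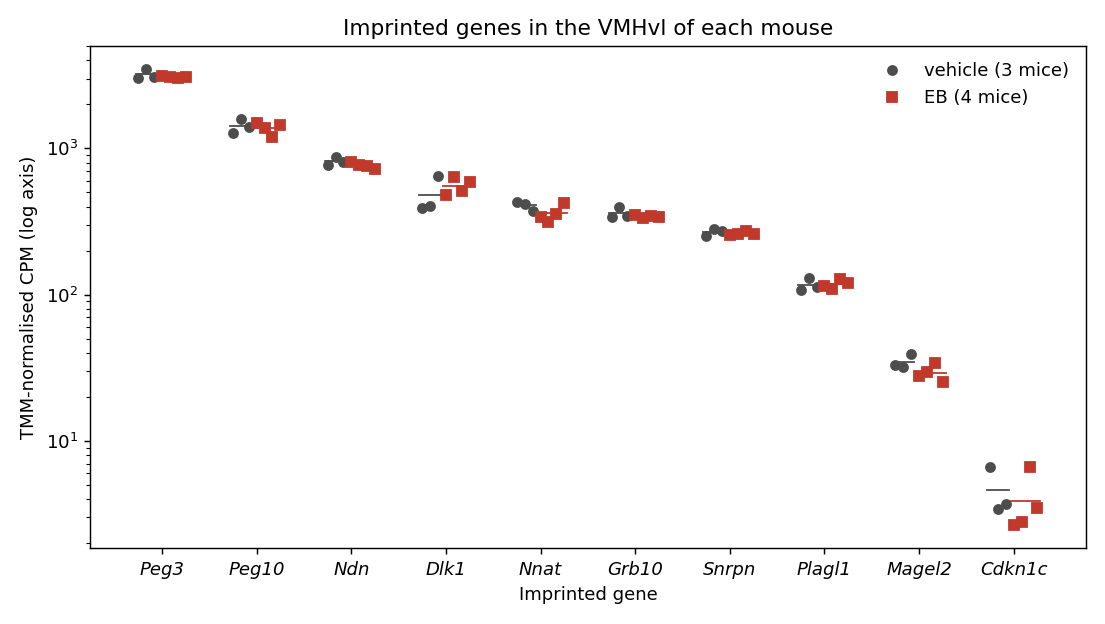
TMM-normalised CPM (log axis) of the 10 imprinted genes in each of the 3 vehicle mice (grey circles) and 4 EB mice (red squares), with a line at each group's mean. The groups overlap in every gene, and the genes span from 2.65 CPM for Cdkn1c to 3505 CPM for Peg3.

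Ndn, Magel2 and Snrpn lie in the cluster that corresponds to the human Prader-Willi region. Ndn (necdin; chr7:62346569-62350262, 1 exon) encodes a MAGE protein that restrains cell division and supports neuronal survival. It was at 772, 872 and 808 CPM in vehicle 1 to 3 and at 806, 775, 762 and 726 CPM in EB 1 to 4. The highest value was vehicle 2 and the lowest EB 4, and the log2 change was -0.09 ± 0.06 (SE; 95% interval -0.22 to 0.04; edgeR adjusted p = 0.775). Magel2 (chr7:62377010-62381640, 1 exon) encodes a MAGE protein that acts with the ubiquitin ligase TRIM27 in endosomal recycling, and its loss alters oxytocin neurons and feeding. It was at 33.0, 32.1 and 39.4 CPM with vehicle and at 27.9, 29.5, 33.9 and 25.2 CPM with EB. EB 3 alone of the EB mice lay above the lowest vehicle mouse. The log2 change of Magel2 was -0.26 ± 0.12 (SE; interval -0.52 to 0.00), and with an unadjusted p of 0.0509 and an edgeR adjusted p of 0.588 it was the smallest p of the 10 genes.

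Snrpn (chr7:59982495-60140219, minus strand) encodes SmN, the splicing factor that stands in for SmB in neurons. Its level was 251, 280 and 274 CPM with vehicle and 258, 258, 274 and 259 CPM with EB, a log2 change of -0.03 ± 0.06 (SE; edgeR adjusted p = 0.950). Vehicle 1 and vehicle 2 held the lowest and the highest value, with all EB mice between them. Snrpn shares 589 exonic bases (27.3% of its length) with the gene model Gm38393 on the same strand, so how the authors' counting split those reads affects its level. Gm38393 itself was at 147 ± 6.10 CPM with vehicle and 141 ± 2.44 with EB (log2 -0.06, edgeR adjusted p = 0.878). Snurf, whose whole exonic length of 216 bases is shared with Snrpn on the same strand, was listed at 0 counts in all 7 libraries. That value depends on the counting as well.

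Snhg14 and Ube3a of this cluster also missed the threshold. Snhg14, the long noncoding RNA that runs on from Snrpn and hosts snoRNAs, had a log2 change of 0.05 ± 0.07 (SE; edgeR adjusted p = 0.937). Ube3a, a ubiquitin ligase expressed from the maternal copy in neurons, had one of -0.03 ± 0.08 (SE; edgeR adjusted p = 0.972). The 2 are transcribed from opposite strands and share 1803 exonic bases, and whether the counting used strand is not given in the sources used here. Within a library, the log2 ratio of Snrpn to Ube3a was 0.20 ± 0.19 with vehicle (SD, n = 3) and 0.19 ± 0.05 with EB (SD, n = 4; two-sided exact permutation p = 1.0 over 35 splits, where the smallest possible p is 0.0286).

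Peg3 and Peg10 were the members with the most counts. Peg3 (chr7:6703892-6730431, minus strand) encodes a large zinc-finger protein known for its part in maternal care and body temperature. It was at 3032, 3505 and 3100 CPM in the vehicle mice and at 3127, 3098, 3044 and 3102 CPM in the EB mice. Vehicle 2 was the high value, and the other 6 mice lay within 3032 to 3127 CPM. The log2 change of Peg3 was -0.05 ± 0.06 (SE; interval -0.18 to 0.07; edgeR adjusted p = 0.890). Peg10 (chr6:4747306-4760517), a gene derived from a retrotransposon and known for its need in the placenta, was at 1277, 1580 and 1396 CPM with vehicle. With EB it was at 1483, 1385, 1202 and 1452 CPM, which left a log2 change of -0.04 ± 0.08 (SE; interval -0.22 to 0.14; edgeR adjusted p = 0.960). EB 3 was its lowest mouse and vehicle 2 its highest. Sgce, which starts beside Peg10 on the other strand and encodes a sarcoglycan, had a log2 change of -0.04 ± 0.10 (SE; edgeR adjusted p = 0.970), and the log2 ratio of Peg10 to Sgce was 5.51 in both groups (exact permutation p = 1.0).

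Zim1, the zinc-finger gene next to Peg3 (chr7:6671269-6696450, minus strand), was the 1 imprinted gene called among the 39 others tested. It was at 141, 155 and 136 CPM with vehicle and at 103, 112, 93.6 and 97.2 CPM with EB. Every EB mouse lay below every vehicle mouse. Zim1 fell by 0.51 ± 0.08 on the log2 scale (SE; 95% interval -0.68 to -0.34; edgeR adjusted p = 0.00615), from 144 ± 9.45 CPM (SD, n = 3) to 101 ± 8.06 (SD, n = 4), to 0.703 of the vehicle level. DESeq2 and limma-voom also called it. It was called in each of 15 other fits, with log2 changes from -0.56 to -0.45 and adjusted p-values from 1.75e-06 to 0.0446. Only 0.62% of the 50-base stretches of its transcripts occur in other genes.

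The other neighbour of Peg3, Usp29, encodes a ubiquitin-specific protease and starts from the same CpG-rich region on the opposite strand. Usp29 was at 401, 423 and 414 CPM with vehicle and at 405, 384, 401 and 395 CPM with EB (log2 -0.06 ± 0.05, SE; edgeR adjusted p = 0.861). It shares 2582 exonic bases (14.3%) with Zim3 on the other strand, which had at most 6 counts in a library. The ratio of Peg3 to Usp29 counts was 7.77 with vehicle and 7.81 with EB as back-transformed mean log2 ratios (exact permutation p = 0.857). Whether the change of Zim1 differed from those of Peg3 and Usp29 was not tested.

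**Figure D2:**
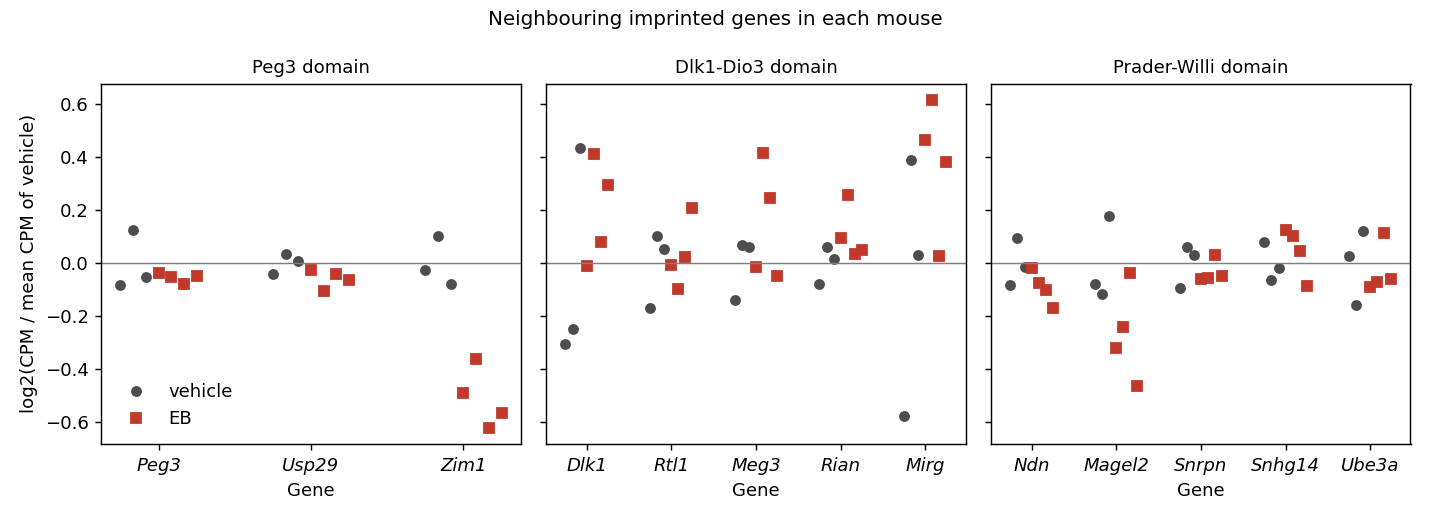
CPM of each gene relative to its vehicle mean, on a log2 scale, in the 7 mice for 3 imprinted clusters, with grey circles for vehicle and red squares for EB. Zim1 is the gene whose EB squares all lie below the vehicle circles, while Peg3 and Usp29 stay near 0 and Dlk1 and Mirg spread widely within both groups.

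Dlk1 (chr12:109452823-109463336) encodes a membrane protein with EGF repeats that resembles Notch ligands and restrains adipocyte formation. It was at 390, 406 and 651 CPM in vehicle 1 to 3 and at 479, 642, 509 and 592 CPM in EB 1 to 4. Vehicle 3 had the highest value of all, and vehicle 1 and 2 the lowest. The log2 change was 0.20 ± 0.20 (SE; interval -0.28 to 0.69; edgeR adjusted p = 0.887), and it moved with single mice: it was 0.48 without vehicle 3 (adjusted p = 0.122), 0.07 without vehicle 1, 0.09 without vehicle 2, 0.12 without EB 2 and 0.04 without vehicle 1 and EB 4 together (adjusted p from 0.959 to 0.982 in these 4). Dlk1 varied more between mice than genes of its level: its biological coefficient of variation was 15.3%, against 8.84% on the trend over genes.

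The 3 mice with most Dlk1 (vehicle 3, EB 2 and EB 4) were also, in the same order, the 3 with most summed RNA of Avp, Oxt, Vip and Lhx1, markers of magnocellular and suprachiasmatic neurons that lie outside the VMH. Those sums were 363, 157 and 124 CPM, and 15.8 to 61.8 CPM in the other 4 mice, with Avp giving most of the counts. Avp and Oxt were highest in vehicle 3 and EB 2, but the other 2 markers of the list ran otherwise: Vip had 18 counts in vehicle 3 and its fewest (6) in EB 4, and Lhx1 had its fewest (1) in vehicle 3 and its most (26) in EB 3. Part of the spread runs the other way, since EB 3 had the lowest sum and the fourth-highest Dlk1. Among pituitary markers, Gh and Prl had counts in vehicle 3 alone (34 and 53), and Cga was highest in EB 4 (448 counts, against 3 to 158 elsewhere). The part of these cells in the Dlk1 values was not tested.

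The maternally expressed noncoding RNAs beside Dlk1 had positive estimates that did not pass the test. Meg3 (chr12:109541001-109571726) was at 832, 961 and 956 CPM with vehicle and at 908, 1223, 1088 and 887 CPM with EB (log2 0.16 ± 0.10, SE; edgeR adjusted p = 0.763). Rian, a host of snoRNAs, had a log2 change of 0.11 ± 0.07 (SE; adjusted p = 0.732). Mirg, a host of microRNAs, had one of 0.39 ± 0.20 (SE; adjusted p = 0.669), with its lowest value, 11.2 CPM, in vehicle 1. The estimate of Mirg was 0.16 without vehicle 1 and 0.63 without vehicle 2, and that of Meg3 0.06 without EB 2 and 0.09 without vehicle 1. The log2 ratio of Dlk1 to Meg3 within a library was -0.96 ± 0.36 with vehicle (SD, n = 3) and -0.88 ± 0.22 with EB (SD, n = 4; exact permutation p = 0.8286).

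**Figure D3:**
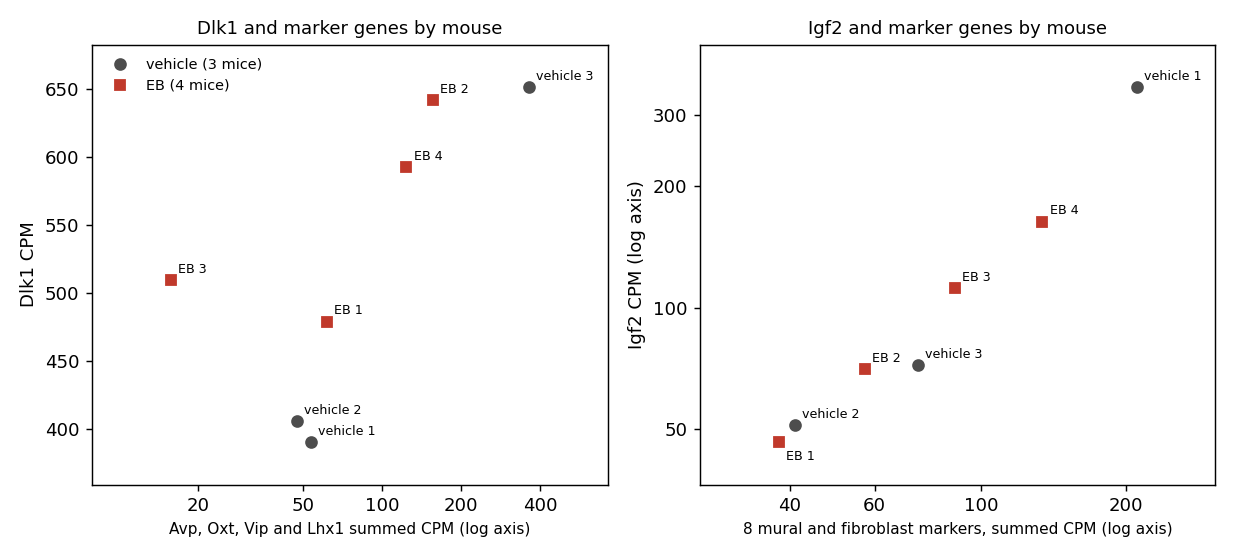
Left, Dlk1 CPM against the summed CPM of Avp, Oxt, Vip and Lhx1 (log axis) in each mouse. Right, Igf2 CPM against the summed CPM of 8 mural and fibroblast markers (both log axes). Vehicle 3, EB 2 and EB 4 are highest on both axes on the left, and the 7 mice keep 1 order on both axes on the right.

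Nnat (neuronatin; chr2:157560078-157562522) encodes a small endoplasmic reticulum proteolipid thought to act on the calcium pump SERCA2. It was at 434, 419 and 372 CPM with vehicle and at 340, 312, 358 and 427 CPM with EB. EB 4 lay above 2 of the vehicle mice, and the other 3 EB mice lay below all of them. The log2 change of Nnat was -0.19 ± 0.09 (SE; interval -0.39 to 0.02; unadjusted p = 0.0704; edgeR adjusted p = 0.652). Nnat sits inside an intron of Blcap, a gene of the opposite strand, whose log2 change was -0.01 ± 0.10 (SE; edgeR adjusted p = 0.986). The log2 ratio of Nnat to Blcap was 2.86 ± 0.12 with vehicle (SD, n = 3) and 2.68 ± 0.26 with EB (SD, n = 4; exact permutation p = 0.314). All 6 within-library ratios had a Benjamini-Hochberg adjusted p of 1.0. Before adjustment, the smallest possible exact permutation p was 0.0286. A single ratio without overlap between the groups could therefore not pass the threshold after adjustment over 6 ratios. The adjusted values do not show that any ratio was unchanged.

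Plagl1, Cdkn1c and Grb10 are known as brakes on growth or its signals. Plagl1 (Zac1; chr10:13060504-13131694) encodes a zinc-finger transcription factor that arrests the cell cycle and is known to act on other imprinted genes. Its values were 107, 131 and 112 CPM with vehicle and 115, 109, 128 and 119 CPM with EB. The log2 change of 0.01 ± 0.08 (SE; interval -0.17 to 0.19; edgeR adjusted p = 0.986) was the estimate nearest 0 of the 10. Grb10 (chr11:11930508-12038683, minus strand) encodes an adaptor that damps signalling from the insulin and IGF1 receptors. It was at 341, 396 and 347 CPM with vehicle and at 349, 335, 344 and 339 CPM with EB, with the 4 EB mice within 335 to 349 CPM. Its log2 change was -0.08 ± 0.06 (SE; interval -0.22 to 0.06; edgeR adjusted p = 0.825).

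Cdkn1c (chr7:143458339-143461050, minus strand) encodes p57, an inhibitor of cyclin-dependent kinases, and had the fewest counts of the 10. It was at 6.69, 3.45 and 3.70 CPM with vehicle and at 2.65, 2.80, 6.61 and 3.46 CPM with EB. A single mouse of each group, vehicle 1 and EB 3, stood above the rest. The log2 change was -0.26 ± 0.35 (SE; interval -1.01 to 0.50; edgeR adjusted p = 0.933), and without vehicle 1 it was 0.11 (adjusted p = 0.968). The direction of its estimate therefore rests on vehicle 1, which had the highest mural and fibroblast marker sum (211 CPM). EB 4 (134 CPM) and EB 3 (88.3 CPM) came next by that sum, while the Cdkn1c of EB 4 was 3.46 CPM. The part of those cells was not tested. Cdkn1c shares 625 exonic bases (30.7%) with the antisense model Gm44732, which had 0 counts in all libraries. Kcnq1ot1, the paternally expressed RNA of the same cluster, had a log2 change of -0.15 ± 0.24 (SE; edgeR adjusted p = 0.949), and the log2 ratio of Cdkn1c to Kcnq1ot1 was -4.50 ± 0.42 with vehicle (SD, n = 3) and -4.64 ± 0.62 with EB (SD, n = 4; exact permutation p = 0.714).

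Levels between genes were compared as CPM per kilobase of merged exons, over all 7 mice. Peg3 led with 236 ± 12.2 CPM per kb (SD, n = 7; rank 50 of 17746 tested genes with a length), followed by Ndn with 213 ± 12.4, Peg10 with 209 ± 19.04 and Nnat with 208 ± 25.8. Neighbours among these 4 overlapped in their ranges over mice, so their order is not set. The next neighbours did not overlap, with Snrpn at 123 ± 5.07, Dlk1 at 92.7 ± 18.9, Grb10 at 38.5 ± 2.29, Plagl1 at 15.0 ± 1.17, Magel2 at 6.82 ± 0.99 and Cdkn1c at 2.06 ± 0.84 CPM per kb. Ndn and Magel2, which are adjacent single-exon genes, differed by more than the spread between mice on this scale. Cdkn1c was the only 1 of the 10 below the middle of the ranking (rank 9642). With the length of the longest transcript in place of merged exons, Peg3 rose to 362 and Grb10 to 69.2 CPM per kb, Nnat came second at 263, and Snrpn and Dlk1 overlapped.

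**Figure D4:**
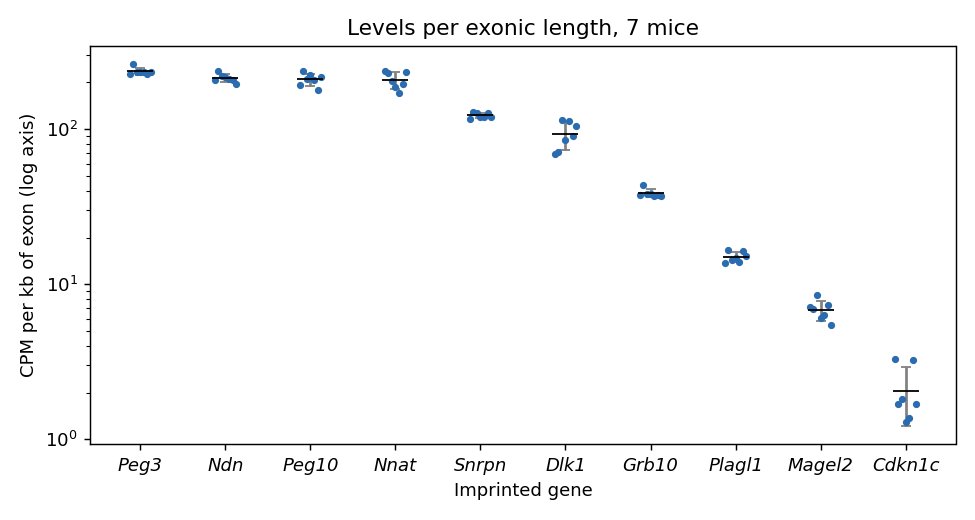
CPM per kilobase of merged exons (log axis) of the 10 genes in each of the 7 mice (points), with the mean (black line) and SD (grey bars). Peg3, Ndn, Peg10 and Nnat form the top step with means from 208 to 236, and the remaining genes step down to Cdkn1c at 2.06.

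Of 45 other imprinted genes listed, 39 were tested: 0 rose and 1 fell (Zim1). In estimate, 21 were positive and 18 negative, with a median log2 change of 0.01, 4 had an unadjusted p under 0.05 and 3 had no overlap between groups. Over all tested genes those shares were 0.919% called, 8.54% and 9.10%. Those not tested were Peg12, Snurf, Kcnq1, Phlda2, Slc22a18 and H19, the RNA that accompanies Igf2 in the fetus and had 0 to 3 counts in a library. Counted with the 10 genes by known parental copy, 28 of 30 paternally expressed genes were tested with 0 called, 13 of 17 maternally expressed genes were tested with 1 called (Zim1), and 8 of 8 genes that vary by tissue or transcript were tested with 0 called.

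Mcts2, a retrogene copy inside H13 that encodes a translation factor, was at 10.5, 8.01 and 12.1 CPM with vehicle and at 13.035, 15.1, 15.0 and 15.3 CPM with EB. The groups did not overlap, but its log2 change of 0.52 ± 0.16 did not pass (SE; edgeR adjusted p = 0.247; DESeq2 adjusted p = 0.0931). Trappc9, a trafficking complex subunit, also had no overlap (34.0 ± 1.99 CPM with vehicle, SD, n = 3, and 38.7 ± 0.76 with EB, SD, n = 4; log2 0.19 ± 0.09, SE; edgeR adjusted p = 0.583). Sfmbt2, a Polycomb-group gene, had a log2 change of -0.41 ± 0.14 (SE; edgeR adjusted p = 0.325), which was -0.23 without vehicle 2 and -0.57 without vehicle 1 (adjusted p = 0.709 and 0.0619). Mest, a hydrolase of growing tissue, had one of -0.15 ± 0.07 (SE; adjusted p = 0.586), and 21.19% of the 50-base stretches of its transcripts occur in Copg2. Gnas, which encodes the stimulatory G-protein alpha subunit, had one of 0.02 ± 0.09 (SE; adjusted p = 0.980), and 18.65% of the 50-base stretches of its transcripts occur in other genes.

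Igf2, the fetal growth factor that in adult brain is known from meninges, vessels and choroid plexus, varied widely between mice. Igf2 was at 352, 51.3 and 72.1 CPM with vehicle and at 46.5, 70.5, 112 and 164 CPM with EB. The log2 change was -0.69 ± 0.85 (SE; edgeR adjusted p = 0.926), and without vehicle 1 it was 0.66 (adjusted p = 0.828). The 7 mice had the same order for Igf2 and for the mural and fibroblast marker sum, from EB 1 (37.9 CPM of markers) to vehicle 1 (211 CPM), and all 8 of those markers were detected in every mouse. Single markers did not all keep that order: Pdgfrb had 278 counts in EB 1 and 220 in vehicle 2. The endothelial sum was also highest in vehicle 1 and EB 4 (82.8 and 62.3 CPM), but lowest in EB 3 (42.8 CPM), where Igf2 was at 112 CPM. The choroid plexus sum was highest in vehicle 2 (239 CPM) and lowest in EB 3 (105 CPM). The part of any of these cells in the Igf2 values was not tested.

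**Figure D5:**
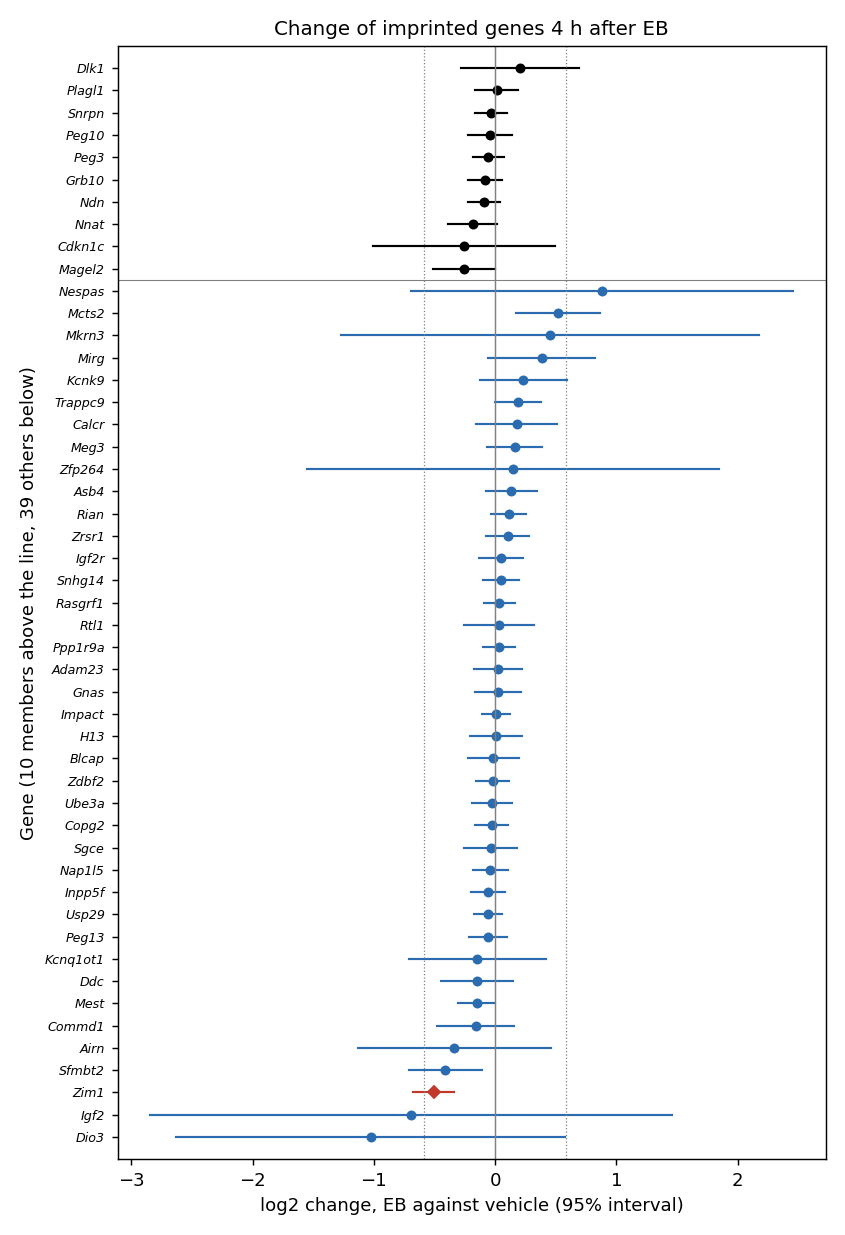
Log2 change with EB against vehicle (points) with its 95% interval (lines) for the 10 genes (black, above the grey line) and the 39 other imprinted genes tested (blue, below it), with dotted lines at a 1.5-fold change in each direction. Zim1 (red diamond) is the gene called, and its interval spans -0.68 to -0.34.

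Relatives of the 10 genes by protein family were counted the same way. Of 21 listed, 20 were tested and 0 were called by edgeR, DESeq2 or limma-voom. Over all the genes each tool tested, the shares called were 0.919%, 1.96% and 0.816%, so 0 of 20 is near them. Of the 20, 4 had an unadjusted p under 0.05 (8.54% of all tested genes) and 5 had no overlap between groups (9.10% of all tested genes). Maged1, the most abundant relative of Ndn and Magel2, was at 893 ± 60.5 CPM with vehicle (SD, n = 3) and 1017 ± 55.9 with EB (SD, n = 4), without overlap, and missed the threshold (log2 0.19 ± 0.06, SE; edgeR adjusted p = 0.340). The MAGE relatives Magee2 (log2 -0.34 ± 0.10, SE), Mageh1 (-0.24 ± 0.09) and Magee1 (-0.11 ± 0.06), named after their values were seen, also had no overlap but were lower with EB, with edgeR adjusted p-values of 0.214, 0.414 and 0.726. Grb14, the relative of Grb10 with the higher level, was lower with EB as well and did not pass (log2 -0.39 ± 0.15, SE; edgeR adjusted p = 0.427). The most abundant relatives of the other genes were Dlk2 for Dlk1 (log2 0.06), Snrpb for Snrpn (0.04), Rtl5 for Peg10 (-0.04), Plagl2 for Plagl1 (-0.17) and Cdkn1b for Cdkn1c (-0.17), with edgeR adjusted p-values from 0.760 to 0.980. Snrpb encodes the SmB protein that SmN replaces and was at 13.4 ± 0.60 CPM with vehicle (SD, n = 3).

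Of 12 genes that maintain or read imprints, such as Zfp57, Trim28 and Dnmt1, 11 were tested, 0 were called by any of the 3 tools and 2 had an unadjusted p under 0.05, against 8.54% of all tested genes (Dnmt3a and Smchd1, named after their values were seen). Of 12 genes whose proteins are known to work with the 10, such as Insr and Igf1r for Grb10, all were tested and 0 were called by edgeR or limma-voom. Over all the genes each tool tested, edgeR called 0.919%, limma-voom 0.816% and DESeq2 1.96%. Trim27, the ubiquitin ligase partner of MAGEL2, was called by DESeq2 alone and is named for that. It was at 14.1, 14.3 and 12.6 CPM with vehicle and at 23.8, 16.9, 20.3 and 18.2 CPM with EB, without overlap (log2 0.53 ± 0.14, SE; edgeR adjusted p = 0.155; DESeq2 adjusted p = 0.0345). Its estimate was positive and that of Magel2 negative.

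The 10 genes did not keep 1 order over the mice. Vehicle 2 was the highest mouse for 6 of them (Ndn, Snrpn, Peg3, Peg10, Plagl1 and Grb10) and vehicle 1 the lowest for 4. Over the 45 pairs of the 10 genes, the highest correlation of log2 CPM over the 7 mice was between Peg3 and Grb10 (Pearson r = 0.955, exact permutation p = 0.0480, adjusted p = 0.356; Spearman rho = 0.607, exact permutation p = 0.167, adjusted p = 0.756). Without the 2 mice farthest from the median of Peg3, r was 0.151, so this relation rests on those mice. The lowest was between Peg10 and Cdkn1c (r = -0.802, exact permutation p = 0.0327, adjusted p = 0.356; rho = -0.679, exact permutation p = 0.110, adjusted p = 0.756), and r was -0.868 without the 2 mice farthest from the median of Peg10. Peg3 and Peg10, a pair named after its values were seen, had the highest rho of the 45 (0.964, exact permutation p = 0.0028, adjusted p = 0.125), with r = 0.757 (exact permutation p = 0.0290, adjusted p = 0.356) and r = 0.979 without the 2 mice farthest from the median of Peg3.

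As a description over 7 mice that share depth and dissection, the genes whose log2 CPM ran most like each of the 10 were picked among 11976 tested genes. Picking the highest of so many r values over 7 mice gives high values by itself, so their size is not evidence of a relation. The nearest were Glo1 for Dlk1 (r = 0.982), Bri3bp for Ndn (0.987), Camk2n1 for Magel2 (0.974), Onecut2 for Snrpn (0.992) and Guk1 for Peg3 (0.987). For the rest they were Elk1 for Peg10 (0.992), Kdelc2 for Nnat (0.986), Ikbkap for Plagl1 (0.982), Cnep1r1 for Cdkn1c (0.965) and Prune for Grb10 (0.989). Taking the 3 nearest of each gene, r ran from 0.950 to 0.992, and 0 of the 30 were imprinted genes or members of the other lists. Those lists hold few of the genes compared. Of the 30, 0 were called, against 0.919% of all tested genes. They were picked for likeness to genes that were not called, so neither 0 is a result about the 10.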

How the data were processed

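RNA-seq libraries of 7 mice (3 vehicle, 4 EB) were built from 15 ng of hand-dissected VMHvl RNA using the Trio kit of Tecan/NuGEN, per the labels' protocols. The deposited values are the authors' raw counts for each gene, in whole numbers and not normalised. The submitters' processing notes name HISAT2, HTSeq, DESeq2 and mm10. Versions, annotation, strand setting and the treatment of multiply mapped reads: not given in the sources used here. Reads of overlapping genes can be dropped or assigned to either gene by such counting.

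The filter was filterByExpr (minimum count 10), which left 18387 of 31222 genes with any count. Scaling was by TMM and the test was edgeR 4.0.16 (quasi-likelihood, R 4.3.3), without covariates. Calls needed an adjusted p below 0.05 (Benjamini-Hochberg, all tested genes), and adjusted p-values are edgeR's unless another tool is named. The common biological coefficient of variation was 22.3%, with 5 residual degrees of freedom. Log2 changes carry SE and 95% intervals, CPM values are TMM-normalised, and ratios of counts used a pseudocount of 0.5 and exact permutation.

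The 10 genes, the 4 lists beside them (other imprinted genes, relatives, imprint maintenance, partners) and 14 marker lists were chosen with earlier results of these data known. Named genes are the 10, 12 set other imprinted genes, the 6 others of smallest p, called genes of the other lists, the most abundant relative of each gene and the 3 genes most correlated with each.

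Alternatives were DESeq2 1.42.0, limma-voom 3.58.1, other scalings and filters, and libraries left out. In 3 simulations of the EB and vehicle comparison (200 changed genes, a mean of 17735 tested), edgeR found 37.5% of the genes given a 1.5-fold change and 60.2% of those given a 2-fold change, while false calls made up 8.53%, above the 0.05 threshold. The changed genes were drawn from all tested genes (median biological coefficient of variation 18.6%). The shares found therefore do not describe the 10 genes (median 9.13%). Positions and lengths are from GENCODE vM21 (GRCm38, also named mm10), which matched 96.5% of tested symbols. No replicate pair differed by less than sampling noise (chi-square per degree of freedom from 17.0 to 166).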

Additional observations from a re-analysis of the deposited data

Results flagged for a closer look

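Within the 4 EB mice, 26 imprinted genes were checked for a mouse far from the others (gap to the nearest mouse over the group's range above Dixon's 95% critical value), and 3 were found, where chance gives about 1 in 20 groups. Snrpn was highest in EB 3, at 274 CPM against 258 to 259 CPM in the other EB mice, a value within the range of the vehicle mice (251 to 280 CPM). Ube3a, of the same cluster, was also highest in EB 3, at 253 CPM against 220 to 225 CPM, likewise within the vehicle range (210 to 255 CPM). Mcts2 was lowest in EB 1, at 13.035 CPM against 15.0 to 15.3 CPM, and still above the highest vehicle mouse (12.1 CPM).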

How the results depend on the processing

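None of the 10 genes was called in any of 16 alternatives, and Zim1 stayed the 1 call among the other imprinted genes. Over all genes, 169 were called, 351 by DESeq2 (232 higher, 119 lower), and 94 (without vehicle 3) to 159 when 1 library was left out, with 103 without EB 1. The median log2 change of the 10 genes ran from -0.105 (without vehicle 1) to -0.0072 (without vehicle 2) when 1 library was left out, and was -0.101 without vehicle 1 and EB 4. Over the alternatives, 141 of 150 single values of the 10 genes kept their direction and side of the threshold and 9 turned direction. Leaving out 1 library moved the log2 change of Peg3 from -0.0988 to 0.0120, Peg10 from -0.112 to 0.0463, Plagl1 from -0.0504 to 0.102, Cdkn1c from -0.636 to 0.107, Ube3a from -0.101 to 0.0365, Sgce from -0.0837 to 0.0138, Blcap from -0.0790 to 0.0738, Kcnq1ot1 from -0.343 to 0.0025, Igf2 from -1.12 to 0.664 and Gnas from -0.0503 to 0.102. The others of the 10 kept their sign, with Dlk1 from 0.0670 to 0.479, Ndn from -0.134 to -0.0421, Magel2 from -0.337 to -0.162, Snrpn from -0.0834 to -0.0030, Nnat from -0.278 to -0.127 and Grb10 from -0.125 to -0.0113. Leaving out 1 library moved the difference in log2 ratio of Dlk1 to Meg3 from -0.0595 to 0.286, Snrpn to Ube3a from -0.0708 to 0.0999, Cdkn1c to Kcnq1ot1 from -0.418 to 0.0489, Peg10 to Sgce from -0.0771 to 0.0752 and Peg3 to Usp29 from -0.0192 to 0.0549. Without vehicle 1 and EB 4 together, the log2 change was -0.0534 for Plagl1, 0.160 for Cdkn1c, 0.0081 for Sgce, 0.307 for Igf2 and -0.0462 for Gnas, and the ratio differences were -0.0839 (Dlk1 to Meg3), 0.148 (Cdkn1c to Kcnq1ot1), -0.145 (Peg10 to Sgce) and -0.0150 (Peg3 to Usp29). The cause was not tested. No paired analysis was possible because no label numbers or links mice across the 2 groups. Of the 10 genes, Cdkn1c had the fewest counts, 81 to 172 a library, and other imprinted genes had fewer still (Mkrn3, 2 to 17).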

Other observations

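The remaining marker lists gave these summed levels over the 7 mice, counting only the markers with enough counts to be tested. Neuronal markers were at 3960 to 5003 CPM and VMH markers at 801 to 1064 CPM. Arcuate markers were at 449 to 577 CPM, most of it Prlr (means of 480 CPM with vehicle and 436 with EB). Pomc was at 18.1 and 28.6 CPM, Tac2 at 15.1 and 12.4, Ghrh at 5.50 and 5.67 and Agrp at 0.63 and 1.39. Kiss1 had 0 to 3 counts. Markers of amygdala, striatum and cortex were at 60.3 to 70.0 CPM. Oligodendrocyte markers ran from 605 to 773 CPM, astrocyte markers from 475 to 840 CPM, microglial markers from 51.1 to 69.9 CPM and endothelial markers from 42.8 to 82.8 CPM. Choroid plexus markers ran from 105 to 239 CPM and tanycyte and ependymal markers from 14.6 to 30.9 CPM. Pituitary markers (3 of 5, without Gh and Prl) ran from 2.84 to 28.2 CPM and blood markers (2 of 3) from 4.84 to 23.2 CPM. The astrocyte, tanycyte and pituitary sums were highest in EB 4, and the endothelial and blood sums in vehicle 1.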
